A study of Homo sapiens with 12 samples.

Results

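The genes described here carry a solute carrier (SLC) symbol and were measured in HepG2 cells in which forms of β-catenin were knocked down. They were chosen by symbol and level, and whether their proteins work outside the mitochondrion was not tested. The symbol had to start with SLC and a digit, members of SLC25A and SLC51, pseudogenes and antisense symbols were left out, and the mean log2 intensity had to reach 6 in siCtrl or in any knockdown group. Of 14884 named genes, 37 had such a symbol. Of these, 9 belonged to SLC25A or SLC51, 9 were antisense, divergent or overlapping transcripts, and 19 met the symbol rule, of which 18 reached the level. All 18 reached it in siCtrl and in each knockdown group, so no member entered through a group in which it was high. The long-studied carriers of glucose, amino acids, bile acids and metals are not analysed here, and the 18 are mostly carriers that received their SLC symbols recently.

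HepG2 is a cell line derived from a hepatocellular tumour. Its β-catenin gene lacks exon 3 on a single allele, so a shortened β-catenin that escapes degradation is made beside the full-length protein, in every group including the controls. The cells were transfected with sißCat-WT (an siRNA against the full-length form), sißCat-mut (against the shortened form), sißCat-both (against both forms) or siCtrl (a control siRNA). RNA was taken at 120 h and measured on Affymetrix arrays, with 3 arrays in each of 4 groups. The labels call these triplicates and do not say whether they were separate cultures, so the p-values cover no more than the variation among these arrays, and that may be technical. The targeted gene is not analysed here, so the groups rest on their labels.

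Solute carriers move small molecules across membranes, either down a gradient or coupled to the movement of ions or of a second solute. Many sit in the plasma membrane and set what a cell takes up, and others serve lysosomes or the Golgi. Hepatocytes rely on them for exchanging nutrients, vitamins, ions and organic anions with blood and bile. By fold, 10 of the 18 genes belong to the major facilitator superfamily, 3 encode PQ-loop proteins, and 2 belong to the SLC35 family. SLC38A12 and SLC9D1 are each the only gene of their family among the 18. The remaining gene, SLC2A4RG, encodes a transcription factor that binds the promoter of a glucose carrier and moves no solute. It entered through its symbol, and a grouping by family number would place it among the sugar carriers.

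Values are log2 intensities made by the authors with RMA, in which a difference of 1 is a doubling. Each gene was read from 1 probe set, and levels are compared only within a gene. A gene was called at a Benjamini-Hochberg adjusted p under 0.05 in limma, fitted over all 14884 genes and all 12 arrays, and errors of changes are standard errors of that fit. Array medians lay between 4.71 and 4.78, and replicate arrays correlated at 0.994 to 0.997. Of 11 hepatocyte markers 8 were measured, with group means of 9.34 to 13.5. Their summed level was 97.8 to 98.5 after sißCat-WT and 99.0 to 99.5 after siCtrl. It was 103 in all sißCat-mut arrays and 102 in all sißCat-both arrays. Of the 8, 6 were higher and 0 lower after sißCat-mut (12% and 13.6% of all genes). After sißCat-both 7 were higher and 1, APOA2, lower (15.5% and 18.1%). After sißCat-WT 0 were higher and 1, AHSG, lower (5.2% and 4.97%). TTR rose most, by 1.45 after sißCat-mut and 0.91 after sißCat-both. Of 12 markers of other cell types 5 were measured, with sums of 35.6 to 36.9 after sißCat-WT, 37.0 to 37.7 after sißCat-mut and 36.1 to 36.8 after sißCat-both, against 36.7 to 37.0 after siCtrl. PECAM1, VWF and KRT7 stayed within group means of 4.24 to 5.27, and VWF was higher after sißCat-mut (0.33) and sißCat-both (0.37). The macrophage markers CD68 and LYZ moved in opposite directions after sißCat-mut, which the sums hide. CD68 was higher after sißCat-mut, by 0.48 ± 0.10 (limma adjusted p = 0.00343). LYZ was lower after sißCat-mut, with a change of -0.39 ± 0.09 (adjusted p = 0.00556), and after sißCat-both, with -1.13 ± 0.09 (adjusted p = 5.94e-07). Its arrays read 11.84, 11.47 and 11.48 after sißCat-both, against 12.74, 12.68 and 12.75 after siCtrl. The part of these marker shifts in the changes below was not tested. All 12 arrays carry the label HepG2, so these genes were read in a single cell line and do not count cells of other types. In bulk RNA, fewer cells expressing a gene and less RNA per cell cannot be told apart.

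Levels of different genes come from different probes and are set here only against the level rule. SLC49A3 was the member nearest to it, with means of 6.11 after sißCat-WT, 6.15 after sißCat-mut and 6.06 after sißCat-both, against 6.08 after siCtrl. The next above it were SLC35D4 and SLC66A3. The single gene of the symbol rule below the level was SLC60A1, with means of 5.38 after sißCat-WT, 5.20 after sißCat-mut and 5.65 after sißCat-both, against 5.32 after siCtrl.

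**Figure D1:**
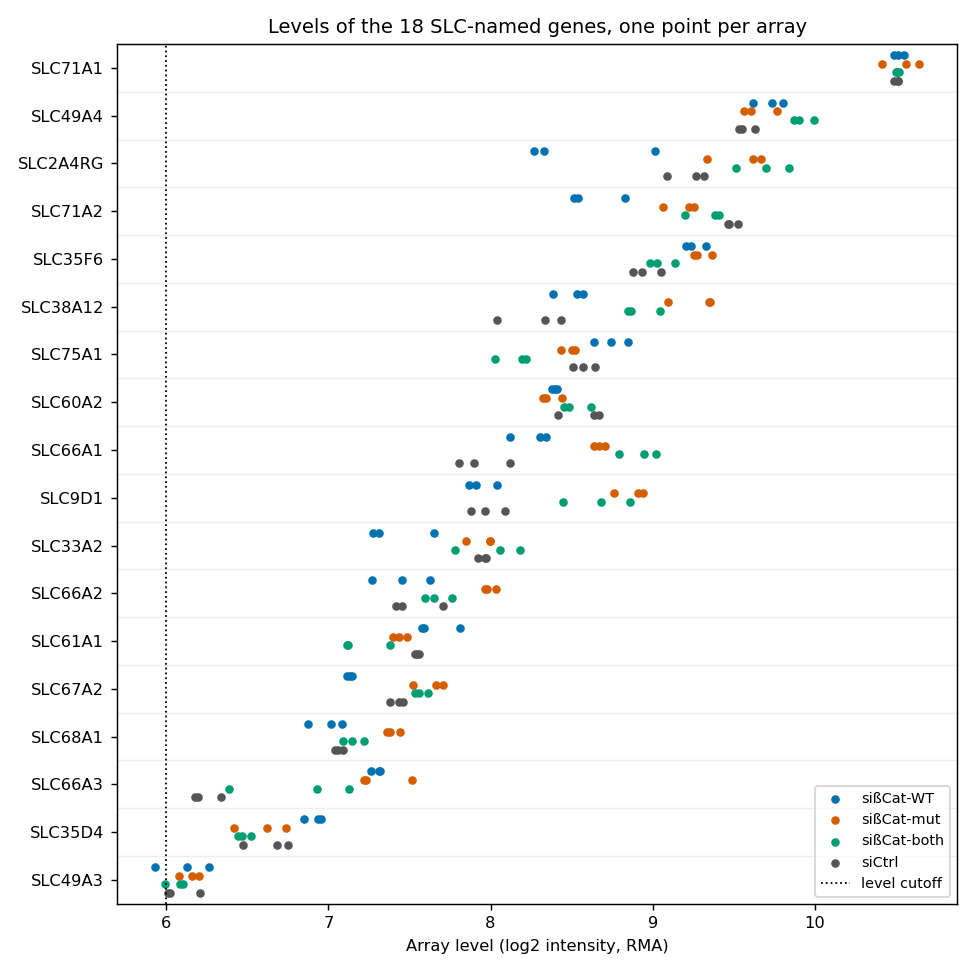
Log2 intensity (x axis) of the 18 genes (rows) on each of 12 arrays, by siRNA group. The sißCat-mut arrays stand apart from the siCtrl arrays for SLC66A3, SLC71A2, SLC38A12 and SLC9D1, and the groups coincide for SLC71A1.

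After sißCat-mut, 8 of 18 genes (44.4%) were higher than after siCtrl, where 12% of all genes tested were called higher. SLC71A2 was the only member called lower (5.56%), where 13.6% of all genes were. After sißCat-both, 6 were higher (33.3%, against 15.5% of all genes) and 2 lower (11.1%, against 18.1%). After sißCat-WT, 2 were higher (11.1%, against 5.2%) and 4 lower (22.2%, against 4.97%). Among the 7904 genes with a group mean of at least 6 the shares called higher were 19.2% after sißCat-mut, 23.8% after sißCat-both and 8.29% after sißCat-WT. The shares called lower among those genes were 23.6% after sißCat-mut, 30.4% after sißCat-both and 8.74% after sißCat-WT. The median change of the 18 genes was 0.14 after sißCat-mut, 0.09 after sißCat-both and 0.02 after sißCat-WT, beside 0.01, -0.01 and 0.01 over all genes. The 3 comparisons share the siCtrl arrays. Of the 18 genes, 14 were called in at least 1 of them, where 43.5% of all genes and 68.9% of the genes with a group mean of at least 6 were.

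**Figure D2:**
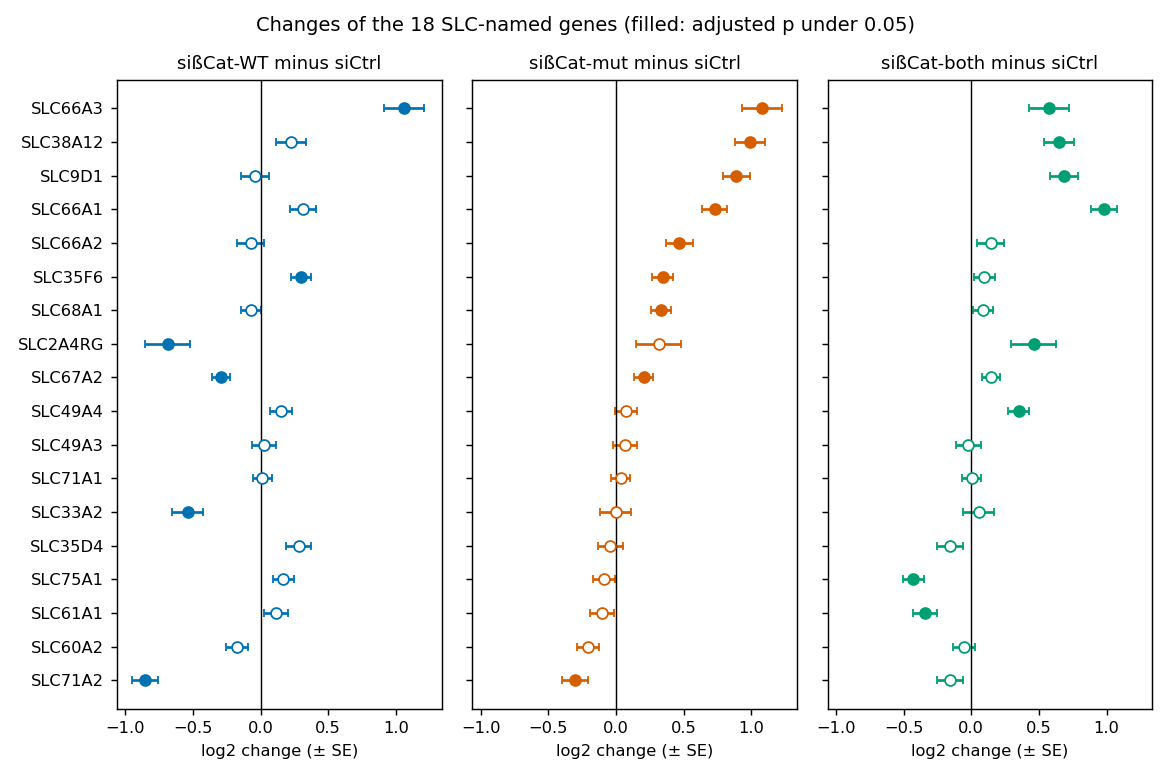
Log2 change against siCtrl (x axis) of the 18 genes (rows) after each of 3 knockdowns, with the standard error of the limma fit. SLC66A3 lies to the right of 0 after all 3 knockdowns, SLC66A1, SLC38A12 and SLC9D1 lie right of 0.5 after sißCat-mut and sißCat-both, and SLC71A2 lies farthest left after sißCat-WT.

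Of the 3 PQ-loop genes, SLC66A3 and SLC66A1 gave some of the largest changes, and SLC66A2 was called against siCtrl after sißCat-mut only. None of the 3 was called lower against siCtrl. Of all genes, 4.97% were lower after sißCat-WT, 13.6% after sißCat-mut and 18.1% after sißCat-both, so 3 genes are too few to read from this. PQ-loop proteins are small membrane proteins related to the lysosomal cystine carrier. SLC66A3, formerly PQLC3, is a little-studied member whose substrate is not settled. It stood at 7.27, 7.32 and 7.31 after sißCat-WT, 7.23, 7.51 and 7.22 after sißCat-mut and 7.13, 6.93 and 6.39 after sißCat-both, against 6.20, 6.34 and 6.18 after siCtrl. All 9 knockdown arrays were above the 3 control arrays, and the sißCat-both arrays were the most spread. The change was 1.06 ± 0.15 after sißCat-WT, a 2.08-fold rise (adjusted p = 0.00046), 1.08 ± 0.15 after sißCat-mut (adjusted p = 0.000105) and 0.58 ± 0.15 after sißCat-both (adjusted p = 0.00738). SLC66A3 was the only one of the 18 genes called higher after each knockdown. Its promoter window, 250 bases before to 50 after the gene's start (RefSeq, GRCh38.p14, chr2:11155217-11155516, plus strand), is shown because this gene had the largest rise after both single knockdowns. Its bases are 82.3% G or C, and nothing is in capitals because none of the motifs searched was found.
SLC66A3 promoter: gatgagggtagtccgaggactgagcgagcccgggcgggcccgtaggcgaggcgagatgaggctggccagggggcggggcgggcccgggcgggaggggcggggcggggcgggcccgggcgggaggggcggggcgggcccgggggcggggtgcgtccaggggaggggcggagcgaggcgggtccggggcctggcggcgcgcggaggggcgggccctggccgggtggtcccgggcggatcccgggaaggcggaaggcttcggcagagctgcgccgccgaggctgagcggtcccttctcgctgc

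SLC66A1, also called PQLC2, exports lysine, arginine and histidine from lysosomes. Its levels were 8.12, 8.34 and 8.31 after sißCat-WT, 8.67, 8.70 and 8.64 after sißCat-mut and 8.95, 8.79 and 9.02 after sißCat-both, against 8.12, 7.80 and 7.90 after siCtrl. The sißCat-mut and sißCat-both arrays were all above the sißCat-WT and siCtrl arrays. It rose by 0.73 ± 0.09 after sißCat-mut (limma adjusted p = 6.85e-05) and by 0.98 ± 0.09 after sißCat-both (adjusted p = 2.98e-06). After sißCat-WT the change was 0.31 ± 0.09 (adjusted p = 0.0521), which became a call in 7 of 21 alternative analyses, with adjusted p down to 0.0161. SLC66A2, formerly PQLC1, is a less studied relative, and it was called higher after sißCat-mut only. It measured 7.63, 7.45 and 7.27 after sißCat-WT, 8.03, 7.98 and 7.97 after sißCat-mut and 7.76, 7.65 and 7.60 after sißCat-both, against 7.70, 7.42 and 7.45 after siCtrl. The sißCat-mut arrays were the highest of the 12, and the change was 0.47 ± 0.10 (adjusted p = 0.00319).

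By group mean, SLC38A12 and SLC9D1 shared the order sißCat-mut, sißCat-both and then the other groups. For SLC9D1 the sißCat-mut and sißCat-both arrays overlapped, and the difference of -0.21 was not called (limma adjusted p = 0.1855). For SLC38A12 the difference was called, but the call was lost in 7 of 21 alternative analyses. SLC38A12, formerly TMEM104, is placed with the amino acid carriers by sequence. It stood at 8.39, 8.57 and 8.53 after sißCat-WT, 9.09, 9.35 and 9.35 after sißCat-mut and 8.85, 8.86 and 9.04 after sißCat-both, against 8.04, 8.34 and 8.44 after siCtrl. The sißCat-WT and siCtrl arrays overlapped and lay below all the others. It rose by 0.99 ± 0.11 after sißCat-mut (limma adjusted p = 1.83e-05) and by 0.65 ± 0.11 after sißCat-both (adjusted p = 0.000384).

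SLC9D1, formerly TMCO3, resembles proton-coupled exchangers of sodium and potassium. Its levels were 7.91, 7.87 and 8.04 after sißCat-WT, 8.76, 8.91 and 8.94 after sißCat-mut and 8.45, 8.68 and 8.86 after sißCat-both, against 7.88, 7.97 and 8.09 after siCtrl. The sißCat-WT arrays lay within the range of the controls or next to it. The change was 0.89 ± 0.10 after sißCat-mut (limma adjusted p = 2.54e-05) and 0.68 ± 0.10 after sißCat-both (adjusted p = 0.000142), and -0.04 after sißCat-WT.

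**Figure D3:**
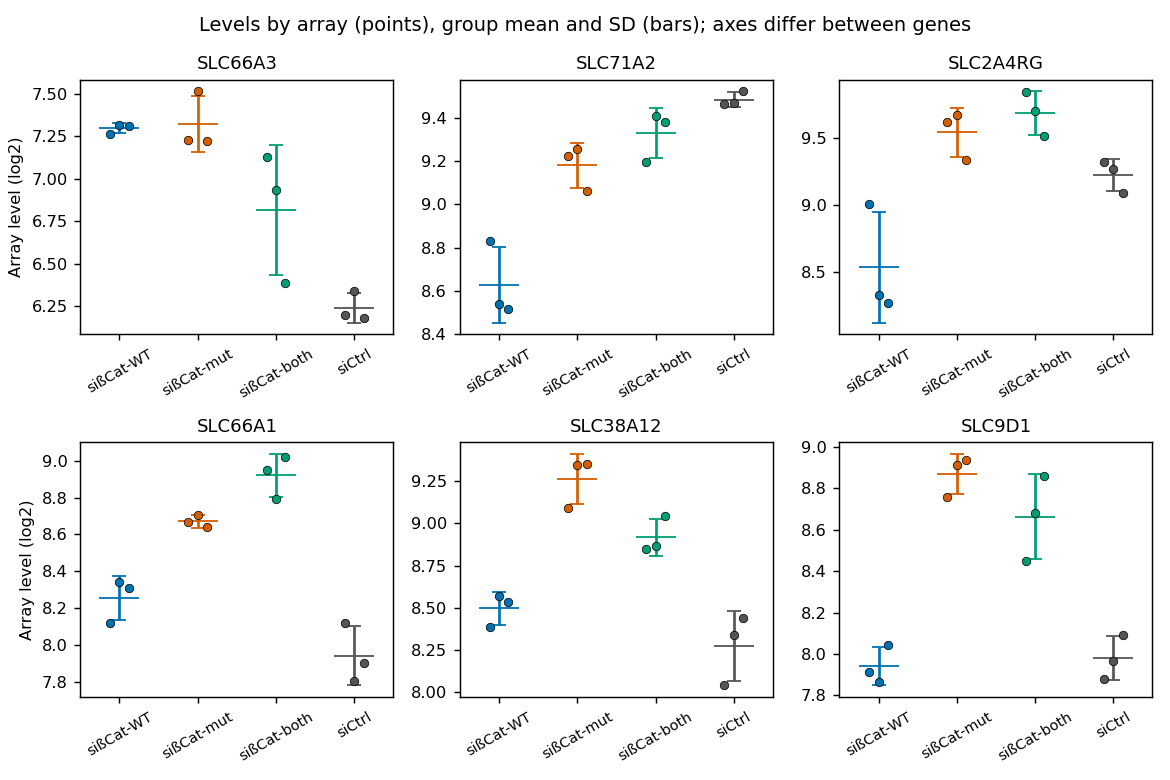
Log2 intensity (y axis) on each array of SLC66A3, SLC71A2, SLC2A4RG, SLC66A1, SLC38A12 and SLC9D1, with group means and SD (n = 3), in the order sißCat-WT, sißCat-mut, sißCat-both, siCtrl. All sißCat-mut arrays of SLC66A1, SLC38A12 and SLC9D1 are above all siCtrl arrays, and all sißCat-WT arrays of SLC71A2 are below them.

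Among the 10 major facilitator genes, 3 were lower after sißCat-WT and none was called higher, where 4.97% of all genes were lower and 5.2% higher. After sißCat-mut 2 were higher and 1 lower (12% and 13.6% of all genes), and after sißCat-both 1 was higher and 2 lower (15.5% and 18.1%). SLC71A2, also MFSD14B, resembles sugar carriers by sequence and has no settled substrate. It stood at 8.83, 8.54 and 8.51 after sißCat-WT, 9.22, 9.26 and 9.06 after sißCat-mut and 9.20, 9.41 and 9.38 after sißCat-both, against 9.46, 9.47 and 9.52 after siCtrl. All control arrays were above all knockdown arrays. It fell by 0.86 ± 0.10 after sißCat-WT, to a level 1.81-fold lower (limma adjusted p = 0.000104), and by 0.30 ± 0.10 after sißCat-mut (adjusted p = 0.0306). The sißCat-mut call was lost without any 1 of 5 arrays (siCtrl replicates 1 to 3, sißCat-mut replicates 1 and 3) and under renewed quantile normalization, with adjusted p of 0.0521 to 0.122 in these 6 analyses. After sißCat-both the change was -0.16 and was not called. Its close relative SLC71A1, MFSD14A, held group means of 10.52 after sißCat-WT, 10.54 after sißCat-mut and 10.51 after sißCat-both, against 10.50 after siCtrl. The 95% intervals of its 3 changes lay between -0.15 and 0.19. The SLC71A2 promoter (RefSeq, GRCh38.p14, chr9:94374319-94374618, plus strand) is shown because this gene fell the most, and it also held none of the motifs.
SLC71A2 promoter: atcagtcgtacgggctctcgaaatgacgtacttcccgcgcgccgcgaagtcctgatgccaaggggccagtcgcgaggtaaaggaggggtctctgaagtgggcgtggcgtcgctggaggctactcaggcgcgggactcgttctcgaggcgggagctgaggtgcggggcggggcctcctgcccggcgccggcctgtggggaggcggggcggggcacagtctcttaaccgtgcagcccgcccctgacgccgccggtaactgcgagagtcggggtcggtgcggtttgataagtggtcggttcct

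SLC33A2, formerly MFSD3, is a relative of the carrier that brings acetyl-CoA into the endoplasmic reticulum. Its levels were 7.65, 7.31 and 7.27 after sißCat-WT, 8.0, 8.0 and 7.85 after sißCat-mut and 8.18, 7.78 and 8.06 after sißCat-both, against 7.97, 7.97 and 7.92 after siCtrl. The sißCat-WT arrays were the lowest of all, and the change there was -0.54 ± 0.11 (limma adjusted p = 0.00762). SLC67A2, MFSD9, was the only member called in opposite directions after the single knockdowns. It measured 7.12, 7.13 and 7.15 after sißCat-WT, 7.66, 7.70 and 7.52 after sißCat-mut and 7.54, 7.62 and 7.56 after sißCat-both, against 7.38, 7.44 and 7.46 after siCtrl. The sißCat-WT arrays were below the controls and the sißCat-mut arrays above them, with changes of -0.29 ± 0.07 (adjusted p = 0.0157) and 0.20 ± 0.07 (adjusted p = 0.0453). The rise was lost in 11 of 21 alternative analyses, 9 of which left out a single array (adjusted p up to 0.163 over the 11), and the fall in 3 of them (without siCtrl replicate 2 or 3, or sißCat-WT replicate 2). SLC68A1, MFSD13A, has no settled substrate and rose by 0.33 ± 0.07 after sißCat-mut (adjusted p = 0.00378), with arrays at 7.38, 7.36 and 7.44, against 7.09, 7.04 and 7.06 after siCtrl.

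The major facilitator genes called after sißCat-both were SLC49A4, SLC75A1 and SLC61A1. SLC49A4, first known as DIRC2, lies in the lysosomal membrane. It stood at 9.62, 9.80 and 9.74 after sißCat-WT, 9.61, 9.77 and 9.56 after sißCat-mut and 9.87, 9.996 and 9.90 after sißCat-both, against 9.55, 9.53 and 9.63 after siCtrl. The sißCat-both arrays were the highest, and the gene rose there by 0.35 ± 0.08 (limma adjusted p = 0.00313). SLC75A1, also TETRAN, is an organic anion carrier related to bacterial tetracycline exporters. Its levels were 8.74, 8.85 and 8.64 after sißCat-WT, 8.52, 8.44 and 8.50 after sißCat-mut and 8.22, 8.19 and 8.03 after sißCat-both, against 8.64, 8.51 and 8.57 after siCtrl. It fell by 0.43 ± 0.08 after sißCat-both (adjusted p = 0.000766), where all arrays were below those of the other groups. SLC61A1, MFSD5, takes up molybdate, the metal of a small group of oxidases, and measured 7.38, 7.12 and 7.11 after sißCat-both, against 7.55, 7.53 and 7.56 after siCtrl. It fell by 0.34 ± 0.09 (adjusted p = 0.00765).

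Both strands of the promoter windows were searched for 4 motifs. CTTTGA, the core recognised by the TCF/LEF partners of β-catenin, was in 12.9% of 35116 RefSeq windows and in 0 of the 14 members with a window. TGANTCA, the AP-1 site, was in 7.71% of windows and 0 members. CACGTG, the E-box, was in 7.26% of windows and 2 members, and GTCACGTG, a longer form that contains it, was in 2.4% of windows and the same 2 members, SLC60A2 and SLC61A1. Their windows are shown for that reason, with GTCACGTG or its reverse complement in capitals (GRCh38.p14, SLC60A2 at chr6:111259089-111259388 and SLC61A1 at chr12:53251845-53252144, both plus strand). The letters CACGTG start at position -29 in SLC60A2 and at position -1 in SLC61A1, counted from the gene's start. A match describes the letters and shows no binding. Over all windows the median share of G or C was 58.7%, and the members' windows held 58.7% (SLC60A2) to 87.0% (SLC2A4RG). The shares of windows with a motif were not matched for this. SLC33A2, SLC35D4, SLC35F6 and SLC66A2 had no window in the table.
SLC60A2 promoter: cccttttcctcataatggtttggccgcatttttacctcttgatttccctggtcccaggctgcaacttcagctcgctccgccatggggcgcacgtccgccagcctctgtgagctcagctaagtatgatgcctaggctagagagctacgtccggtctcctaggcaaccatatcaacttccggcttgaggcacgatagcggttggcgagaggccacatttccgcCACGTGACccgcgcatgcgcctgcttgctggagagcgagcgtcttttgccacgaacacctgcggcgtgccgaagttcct
SLC61A1 promoter: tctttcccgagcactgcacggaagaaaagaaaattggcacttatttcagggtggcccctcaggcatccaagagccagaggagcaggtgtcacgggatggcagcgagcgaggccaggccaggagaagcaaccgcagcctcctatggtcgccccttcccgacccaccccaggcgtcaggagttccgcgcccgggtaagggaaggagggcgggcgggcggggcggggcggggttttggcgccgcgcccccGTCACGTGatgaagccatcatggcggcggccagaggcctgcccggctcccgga

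SLC60A2, known in rat kidney as a sodium-dependent glucose carrier, was not called against siCtrl. Its arrays read 8.40, 8.41 and 8.38 after sißCat-WT, 8.32, 8.44 and 8.34 after sißCat-mut and 8.48, 8.45 and 8.62 after sißCat-both, against 8.42, 8.67 and 8.64 after siCtrl. The changes were -0.18 (95% interval -0.35 to -0.0025) after sißCat-WT, -0.21 (-0.38 to -0.03) after sißCat-mut and -0.05 (-0.23 to 0.12) after sißCat-both. SLC49A3, a relative of haem and choline carriers, had 95% intervals between -0.22 and 0.26 over the 3 comparisons.

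The SLC35 family supplies nucleotide sugars to the Golgi, although not all members do so. SLC35F6, found in lysosomal membranes, stood at 9.20, 9.33 and 9.23 after sißCat-WT, 9.27, 9.37 and 9.25 after sißCat-mut and 9.14, 8.98 and 9.03 after sißCat-both, against 8.88, 8.94 and 9.05 after siCtrl. Both single knockdowns lay above the controls on every array. It rose by 0.30 ± 0.08 after sißCat-WT (limma adjusted p = 0.0225) and by 0.34 ± 0.08 after sißCat-mut (adjusted p = 0.00382), and the change after sißCat-both was 0.10. The sißCat-WT call was lost without siCtrl replicate 1 or 2 or sißCat-WT replicate 2 or 3, with adjusted p of 0.0592 to 0.101. SLC35D4, formerly TMEM241 and a Golgi protein, was not called against siCtrl. Its largest change there was 0.28 ± 0.09 after sißCat-WT (adjusted p = 0.0802).

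SLC2A4RG, the transcription factor in the set, was called in opposite directions after sißCat-WT and sißCat-both. It stood at 9.01, 8.33 and 8.27 after sißCat-WT, 9.62, 9.67 and 9.34 after sißCat-mut and 9.84, 9.70 and 9.51 after sißCat-both, against 9.32, 9.27 and 9.09 after siCtrl. The first sißCat-WT array lay close to the controls and the other 2 well below them. The change was -0.69 ± 0.17 after sißCat-WT (limma adjusted p = 0.0182) and 0.46 ± 0.17 after sißCat-both (adjusted p = 0.0487). Both calls depended on single arrays: the fall was lost without siCtrl replicate 1 or 2 or sißCat-WT replicate 2 or 3 (adjusted p 0.0649 to 0.0912) and was -0.92 without sißCat-WT replicate 1, and the rise was lost in 9 of 21 alternative analyses (adjusted p 0.0501 to 0.153).

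The contrast of the single knockdowns sets the siRNA against the shortened form beside the siRNA against the full-length form. After sißCat-mut, 9 of 18 genes were higher than after sißCat-WT (50%, against 14% of all genes) and 2 were lower (11.1%, against 17%). Among genes with a group mean of at least 6, 22.2% were higher and 28.6% lower. The largest differences were those of SLC2A4RG at 1.0 (limma adjusted p = 0.000358), SLC9D1 at 0.93 (adjusted p = 1.07e-05), SLC38A12 at 0.77 (adjusted p = 0.000105) and SLC71A2 at 0.55 (adjusted p = 0.000478). SLC66A2, SLC33A2, SLC67A2, SLC66A1 and SLC68A1 were also higher, by 0.41 to 0.54. The genes lower after sißCat-mut than after sißCat-WT were SLC35D4, by -0.32 (adjusted p = 0.0173), and SLC75A1, by -0.26 (adjusted p = 0.0247). SLC66A3, which rose after each single knockdown, differed between them by less than the spread of the arrays. The count of 2 lower genes became 0 without sißCat-WT replicate 1 and 1 without any other single array of these groups.

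Knockdown of both forms was compared with that of the shortened form alone as sißCat-both minus sißCat-mut. How far each siRNA treatment reduced each form is not known here. The contrast therefore holds any other difference between the treatments, beside the added loss of the full-length form. Of the 18 genes 7 were called (38.9%), where 22.2% of all genes were. Among genes with a group mean of at least 6 the share was 35.8%. SLC49A4 was higher, by 0.28 (limma adjusted p = 0.022). The 6 lower genes were SLC66A3 at -0.51 (adjusted p = 0.0244), SLC38A12 at -0.35, SLC75A1 at -0.34 (adjusted p = 0.00711), SLC66A2 at -0.32, SLC35F6 at -0.25 and SLC68A1 at -0.24. Only 2 calls were left with the 2 groups fitted alone, and 2 or 3 without sißCat-both replicate 2 or 3 or any sißCat-mut replicate. The SLC66A3 difference was -0.29 without sißCat-both replicate 3, its lowest array in that group.

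The departure from additivity set the change after sißCat-both beside the sum of the sißCat-WT and sißCat-mut changes. Here 7 of 18 genes were called (38.9%, against 16.4% of all genes). Among genes with a group mean of at least 6 the share was 27.2%. How far each form was reduced in each group is not known here, so additivity is arithmetic and not a model of the forms. For SLC66A3 the sißCat-both change was 0.58 against a sum of 2.14, a difference of -1.57 ± 0.21 (limma adjusted p = 0.000236). For SLC71A2 it was -0.16 against -1.16, a difference of 1.01 ± 0.14 (adjusted p = 0.000246). These 2 calls held in all 21 alternative analyses. SLC2A4RG and SLC33A2 were also above their sums, by 0.83 (adjusted p = 0.0284) and 0.60 (adjusted p = 0.021). Their calls were lost in 7 and 3 of the 21 alternatives. SLC35F6, SLC38A12 and SLC75A1 were below theirs, by -0.55 (adjusted p = 0.00327), -0.57 (adjusted p = 0.0234) and -0.51 (adjusted p = 0.00719). The SLC38A12 call was lost in 5 alternatives, while those of SLC35F6 and SLC75A1 held in all 21. SLC66A1 was close to its sum, at 0.98 against 1.04. The count became 4 without sißCat-WT replicate 2 or 3 or sißCat-mut replicate 3.

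**Figure D4:**
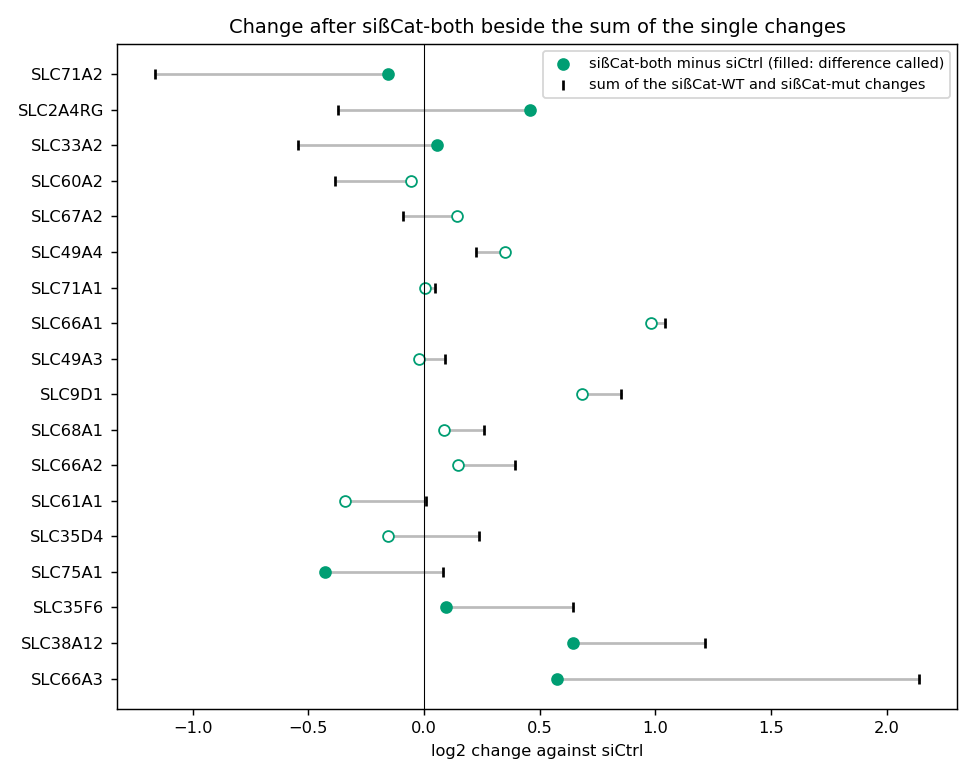
Log2 change against siCtrl after sißCat-both (circles, filled where the difference from the sum was called) beside the sum of the sißCat-WT and sißCat-mut changes (ticks) for the 18 genes, ordered by the difference. SLC71A2 lies farthest above its sum and SLC66A3 farthest below it.

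By an F test over the 4 groups in limma, 15 of 18 genes (83.3%) differed between groups, where 45.3% of all genes and 72.4% of the genes with a group mean of at least 6 did. The exceptions were SLC60A2 (adjusted p = 0.135), SLC49A3 (adjusted p = 0.855) and SLC71A1 (adjusted p = 0.968).

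Carriers often need partners in the membrane. Of 10 listed partners 6 were measured, and 1 was higher after sißCat-WT (5.2% of all genes), 1 after sißCat-mut (12%) and 2 after sißCat-both (15.5%), where 2 were also lower (18.1%). PDZK1, a scaffold that holds carriers in the apical membrane, stood at 7.14, 7.08 and 7.02 after sißCat-mut and 7.13, 7.04 and 7.26 after sißCat-both, against 5.37, 5.50 and 5.66 after siCtrl, rises of 1.57 and 1.63. NPTN, a chaperone of lactate carriers, was 0.34 higher after sißCat-WT and 0.56 lower after sißCat-both (log2 change -0.56). CLTRN, a partner of amino acid carriers in kidney, was 0.75 higher after sißCat-both at levels near the array median. All 7 listed aquaporins, the water and glycerol channels, were measured, and 4 were higher after sißCat-mut (12% of all genes) and 3 after sißCat-both (15.5%), while 1 was lower after sißCat-WT (4.97%). AQP8 rose by 0.90 after sißCat-mut and 0.82 after sißCat-both, and AQP10 by 0.88 and AQP7 by 0.70 after sißCat-mut. AQP7 was dim, with means of 4.57 after sißCat-mut and 3.87 after siCtrl, below the array medians. AQP3 was also called higher after sißCat-mut, although its arrays there overlapped the siCtrl arrays. After sißCat-both AQP3 was higher by 0.66, without overlap. AQP11, the aquaporin lower after sißCat-WT and named after its values were seen, stood at 7.14, 7.16 and 7.003 after sißCat-WT and 8.16, 8.04 and 8.07 after sißCat-both, against 7.69, 7.72 and 7.68 after siCtrl, with changes of -0.59 and 0.39. A list of 6 further carriers that keep an MFSD symbol was made after the symbols were seen, and 3 of them reached a group mean of 6. Of the 6, 2 were higher after sißCat-WT (5.2% of all genes), 3 after sißCat-mut (12%) and 1 after sißCat-both (15.5%). None was called lower, where 4.97%, 13.6% and 18.1% of all genes were. MFSD1, MFSD2A and MFSD6L were called in none of these comparisons, and MFSD8 was higher after sißCat-mut, by 0.45. MFSD11 was higher after sißCat-WT, by 0.39, and after sißCat-mut, by 0.32, with a change of -0.15 after sißCat-both that was not called and a departure from additivity of -0.86 (limma adjusted p = 0.000201). MFSD6 rose by 0.58 after sißCat-WT, 0.85 after sißCat-mut and 1.99 after sißCat-both. Its arrays stood at 7.51, 7.73 and 7.79 after sißCat-both, against 5.64, 5.73 and 5.70 after siCtrl.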

How the data were processed

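The authors deposited a log2 intensity for each of 53617 probe sets. Per the submitters' processing notes these came from RMA, run in Affymetrix Expression Console 1.1. RMA gives the probe intensities of all arrays the same distribution before they are summarized. This hides a shift common to most genes, and RMA compresses changes of dim probe sets. The sources used here do not give the annotation build or the probe set level, and the log2 scale was read from the values. An annotation table of the platform named 16098 probe sets with 1 symbol, 0 with several, and 37519 were not listed. For 779 genes with several probe sets the one with the highest mean was kept, leaving 14884 genes, and all identifiers matched the RefSeq table.

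Group means of all 12 arrays were fitted with lmFit and eBayes of limma 3.58.1 in R 4.3.3, with 8 residual degrees of freedom, and two-sided p-values were adjusted by Benjamini-Hochberg over all genes of a comparison. Tables and figures were made in Python 3.11.15 with pandas 2.3.3 and matplotlib 3.10.9, and the fit was tested on simulated data. There it missed many changes of moderate size, below a doubling, so a gene not called is not shown to be unchanged. Precision is limited by the 3 arrays per group. The members and lists were chosen with earlier results of these data known. Genes named in the text followed a written rule: the largest called changes in each comparison, the leading members of each substrate class, those nearest the level cutoff and the largest called changes of partners and aquaporins. Well-known carriers in that rule, carriers of the SLCO group and ABC transporters are not analysed here. Alternatives were other normalizations, filters, level cutoffs, probe set rules, priors, subsets of groups, the replicate block, array weights and leaving out each array. The arrays were not treated as paired, because in no comparison did all 3 same-numbered pairs of deviations correlate above 0.1. These correlations ran from -0.047 to 0.189 and were not set against pairs of unlike number. Whether arrays of the same number shared a batch was not tested.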

Additional observations from a re-analysis of the deposited data

How the results depend on the processing

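No called change of a member turned its direction under these alternatives, while 32 values in 19 member comparisons, none called, had the other sign. Of 2268 values of single members over 21 alternatives, 2144 stayed on their side of the threshold, 91 were no longer called and 33 became calls. Several counts moved by more than 1.5 times, some of them only with an array left out. Members higher after sißCat-WT numbered 4 without genes under the 40th percentile, against 2 in the fit as reported. Members lower after sißCat-mut numbered 0 after renewed quantile normalization (8 higher and 0 lower in place of 8 and 1), and 2 without those dim genes or with array weights. Members lower after sißCat-mut than after sißCat-WT numbered 1 in place of 2 under renewed quantile normalization and under a level cutoff of 7. Calls for sißCat-both minus sißCat-mut numbered 2 in place of 7 with only these groups fitted. The causes were not tested.

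With each array left out in turn, the counts of members higher and lower were 1 to 3 and 2 to 4 after sißCat-WT, 7 to 8 and 0 to 1 after sißCat-mut, and 5 to 6 and 2 to 2 after sißCat-both. They were 9 to 9 and 0 to 3 for sißCat-mut minus sißCat-WT, 2 to 7 called for sißCat-both minus sißCat-mut and 4 to 8 called for additivity. The higher count after sißCat-WT was 1 without siCtrl replicate 2 or sißCat-WT replicate 2 or 3, and the lower count was 2 without siCtrl replicate 2 or sißCat-WT replicate 2. The lower count after sißCat-mut was 0 without siCtrl replicate 2 or 3 or sißCat-mut replicate 1 or 3. With the replicate number as a block, additivity gave 8 calls in place of 7 and the other counts were equal. Leaving SLC2A4RG out of the counts was an alternative chosen after seeing the data, and it moved no count by more than 1.5 times.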
